A study of Arabidopsis thaliana with 20 samples.

Results

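The histone H3 that covers 1596 regions of the Arabidopsis thaliana genome, listed for a difference in CHH methylation in the mutant cmt3, was compared between leaves of wild-type and cmt3 plants. These regions are differentially methylated regions (DMRs) of 100 bp from the authors' list of 1976 cmt3 CHH DMRs. A region was kept when it shared no base with any of the 2960 cmt3 CHG DMRs, and the other 380 CHH DMRs share at least 1 base with one. The choice used DMR positions alone and no H3 value. The 1596 regions lie on all 5 chromosomes, with 254, 408, 341, 230 and 363 on chromosomes 1 to 5, and 11 of them (0.689%) share a base with a cmt3 CG DMR. They are called CHH-only DMRs below, although this describes the DMR lists and not the methylation of each base, which was not analysed here.

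The wild type was Col-0 and the mutant was cmt3, both in the Columbia background. The mutants drm2 and met1-3 were measured in the same way and are used near the end, and the labels give no allele for cmt3 or drm2. Chromatin of mature leaves from plants aged 3.5 weeks was cut with micrococcal nuclease (MNase), which digests DNA not protected by nucleosomes, and the fragments bound by an anti-histone H3 antibody were sequenced. Each genotype had 2 replicates, but the files hold 1 profile per genotype that combines both. No difference between genotypes below therefore has a replicate error, a test or a p-value, and spread is given over the chromosomes, which share the same libraries. A leaf also holds many cell types, so fewer cells with a nucleosome at a site and less H3 per cell cannot be told apart.

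Plants methylate cytosines in the contexts CG, CHG and CHH, where H is any base but G. CMT3 is a chromomethylase that maintains CHG methylation and is drawn to nucleosomes carrying methylated lysine of histone H3, and that histone mark is in turn deposited by enzymes that bind methylated DNA. CHH methylation is laid down mainly by CMT2 in heterochromatin and by DRM2, which small RNAs and transcripts of RNA polymerase V guide to its targets. Methylation in all contexts is concentrated in transposons, and RefSeq places many transposon-derived genes of this species in its pseudogene class.

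Coverage here is the number of sequenced H3 fragments over a base. Over the distinct bases of all cmt3 windows (2.42 Mb) it averaged 9.43 in Col-0 and 5.73 in cmt3, so the cmt3 profile was the shallower one. Coverage of cmt3 was divided by 0.591, the ratio of cmt3 to Col-0 in the outer flanks of the windows from all 3 cmt3 lists, and cmt3 values below are scaled in this way unless stated. The CMT3 gene lies in none of these windows, so the mutation itself could not be read from the coverage.

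H3 coverage at the CHH-only DMRs was lower in cmt3 than in Col-0. Their mean was 3.90 fragments per base in Col-0 and 1.56 in cmt3, which is 0.400 of the wild-type level and a log2 ratio of the sums of -1.32. On the separate chromosomes this log2 ratio ran from -1.60 on chromosome 2 to -0.92 on chromosome 4. Coverage in the median region was 2.1 in Col-0 and 0 in cmt3. The 75th percentile was 5.23 in Col-0 and 1.37 in cmt3, and the 90th was 9.61 and 4.10. The highest value was 49.6 in Col-0 and 59.4 in cmt3, and it lay in a different region in each genotype.

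Each region was also given its own log2 ratio, with 1 added to both coverages, and the median of these ratios was -0.90 (chromosome medians -1.02 to -0.76). Coverage was lower in cmt3 by at least 2-fold at 755 of the 1596 regions, or 47.3%. Among all 4904 distinct cmt3 DMRs of the CG, CHG and CHH lists, which include these regions, the share was 37.3%. It was higher by at least 2-fold at 38 regions (2.38%), against 2.57% of all cmt3 DMRs. Any lower value was seen at 1125 regions (70.5%, against 66.9% of all cmt3 DMRs) and any higher value at 141 (8.83%, against 22.5%).

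Many of these regions held no H3 fragment at all. In cmt3, 963 regions (60.3%, 95% exact binomial interval 57.9% to 62.7%) had no fragment over any of their bases, against 34.8% of all cmt3 DMRs. In Col-0 this was so for 369 regions (23.1%, 21.1% to 25.3%), against 12.2% of all cmt3 DMRs. A group of 633 regions (39.7%) had fragments in Col-0 and none in cmt3, and 39 had fragments in cmt3 and none in Col-0. Among all cmt3 DMRs, the former class made up 24.3%. Neither genotype had a fragment at 330 regions (20.7%, against 10.5% of all cmt3 DMRs). By chromosome the share without a cmt3 fragment ran from 52.8% to 70.2%. The intervals cover counting error alone and take the regions as independent. Many regions overlap or lie close together, so the intervals are too narrow. Scaling does not make up for the shallower cmt3 profile in a count of empty regions.

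The size of the difference depends on which bases set the scale. With a factor taken from the flanks of the cmt3 CHH windows alone (0.318), the summed log2 ratio was -0.43 and the median -0.54. That factor raises every summed log2 ratio given here for cmt3 by 0.89, so ratios between -0.89 and 0 change sign under it. With it, coverage was lower by at least 2-fold at 632 regions (39.6%) and higher at 97 (6.08%). The shares of all cmt3 DMRs under this factor were not computed, and those given above use the main factor, so they are no match for these. Those flanks are made up in large part of the same loci. Of the outer flank positions of the CHH-only windows, 32.0% lie inside a cmt3 DMR and 64.8% lie within 250 bp of one. With a factor from window bases more than 250 bp from any cmt3 DMR (0.662), the summed log2 ratio was -1.48.

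**Figure D1:**
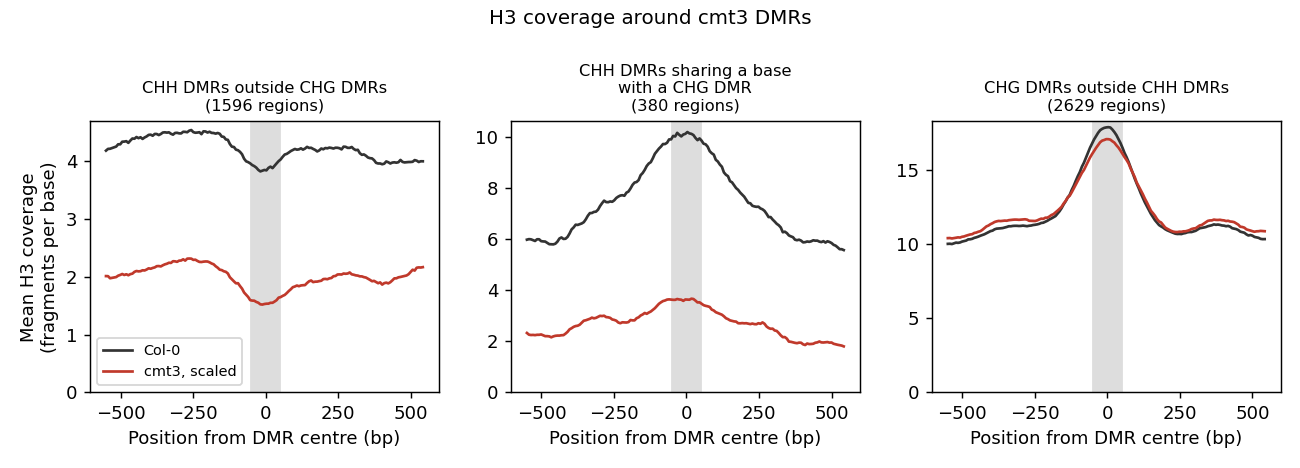
Mean H3 coverage in fragments per base in Col-0 and cmt3 against distance in bp from the DMR centre, with cmt3 divided by 0.591. The 3 panels show windows of the 1596 CHH-only DMRs, the 380 CHH DMRs sharing a base with a CHG DMR and the 2629 CHG DMRs outside CHH DMRs. For CHH-only DMRs both profiles are shallow and nearly flat, and cmt3 lies below Col-0 at every position. Their log2 ratio goes from -1.35 near the centre to -0.87 at the edge.

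The average profile showed no nucleosome centred on the DMR. In Col-0 the mean over the CHH-only windows was lowest (3.83) at -16 bp from the centre and highest (4.55) at -257 bp. In cmt3 the lowest mean (1.52) lay at -17 bp and the highest (2.32) at -262 bp. The log2 ratio was lowest 14 bp to the right of the centre, at -1.35, and highest 548 bp to the right, at -0.87. Coverage of the DMR relative to its own outer flanks was 0.929 in Col-0 and 0.762 in cmt3, a log2 change of -0.29 that needs no scaling between libraries. By chromosome this change ran from -0.50 to -0.03. Among the 241 regions whose coverages in Col-0 and cmt3 add up to 10 or more, the change had the opposite sign, at 0.34.

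Because neighbouring windows overlap, each base was also counted once and sorted by its distance to the nearest cmt3 DMR. The 123.6 kb inside CHH-only DMRs had a mean coverage of 3.83 in Col-0 and 1.59 in cmt3, a log2 ratio of -1.27. The ratio was -0.91 at up to 100 bp outside a DMR, -0.52 beyond that up to 250 bp and -0.12 beyond 250 bp up to 500 bp. At that last distance the means were 2.15 in Col-0 and 1.97 in cmt3. The difference was thus largest inside the DMRs and became smaller with distance, but the distances differ in make-up. Loci, described below, join CHH-only DMRs less than 10 kb apart. Those of 10 or more DMRs held 70 kb of the bases inside DMRs and 29.5 of the 171.5 kb beyond 250 bp. In them the ratio went from -1.49 inside to -0.48 beyond 250 bp. It went from -1.19 to -0.24 in loci of 3 to 9 DMRs and from -0.33 to 0.05 in those of 1 or 2. Over all loci, the share of bases with no fragment went from 32.5% in Col-0 to 71.2% in cmt3 inside the DMRs, and from 66.2% to 78.2% beyond 250 bp.

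In the windows of the other cmt3 DMRs the ratio also went up with distance, but over a smaller range. It was -0.02 inside a DMR, then 0.07, 0.13 and 0.18 over the same 3 distances.

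**Figure D2:**
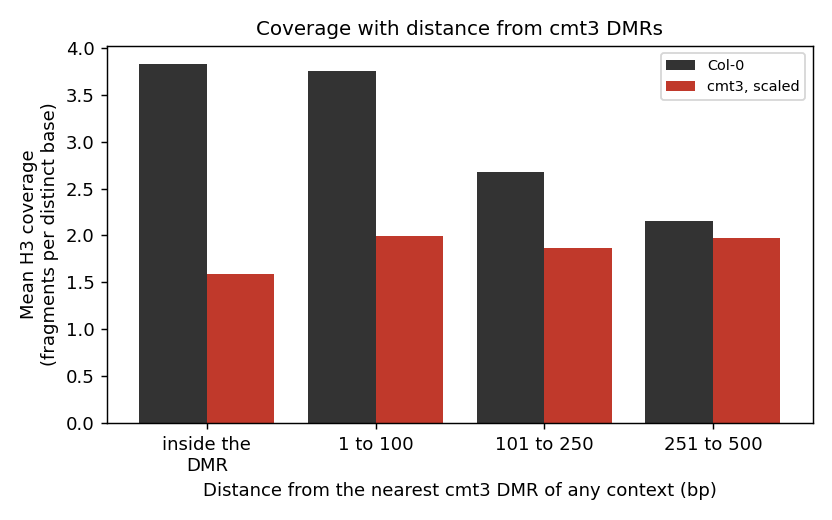
Mean H3 coverage (fragments per base) in Col-0 and scaled cmt3 against distance of a base to the nearest cmt3 DMR, with each base counted once, for bases in windows of CHH-only DMRs. The means are 3.83 in Col-0 and 1.59 in cmt3 inside the DMRs (log2 ratio -1.27). Beyond 250 bp they are 2.15 and 1.97 (log2 ratio -0.12).

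The 3 classes of cmt3 DMRs differed in their H3 levels. The 380 CHH DMRs that share a base with a CHG DMR had a mean coverage of 10.1 in Col-0 and 3.62 in cmt3, with a summed log2 ratio of -1.48, and 273 of them (71.8%) were lower by at least 2-fold. The 2629 CHG DMRs that share no base with a CHH DMR had 17.5 in Col-0 and 16.8 in cmt3, a summed log2 ratio of -0.06. Of these, 688 (26.2%) were lower by at least 2-fold. The log2 ratio of the CHH-only DMRs minus that of the CHG DMRs outside CHH DMRs was -1.26, and it ran from -1.57 to -0.86 on the separate chromosomes. With each class scaled on its own outer flanks that difference was -0.32.

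CHH-only DMRs were also the least covered class in the wild type. DMR coverage relative to the flanks was 1.66 for CHH DMRs shared with CHG DMRs and 1.63 for CHG DMRs outside CHH DMRs, against 0.929 for the CHH-only DMRs. In cmt3 these ratios were 1.67, 1.51 and 0.762. Of the CHG DMRs outside CHH DMRs, 6.47% had no fragment in Col-0 and 19.2% had none in cmt3. Of the windows of 1100 bp around CHH-only DMRs, 106 (6.64%) had no fragment at any base in Col-0 and 270 (16.9%) had none in cmt3. For windows of CHG DMRs outside CHH DMRs these counts were 14 (0.533%) and 73 (2.78%).

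The classes were compared at like coverage in Col-0. Where Col-0 coverage was 2 to under 5, cmt3 coverage was 0.262 of Col-0 over 407 CHH-only DMRs and 0.564 over 374 CHG DMRs outside CHH DMRs. At 5 to under 10 it was 0.294 over 272 and 0.625 over 545, and at 10 to under 20 it was 0.481 over 111 and 0.857 over 462. At 20 or more it was 0.666 over 34 and 1.03 over 851. Both classes moved closer to the wild-type level as Col-0 coverage went up, and CHH-only DMRs had the lower fraction in each of these 4 ranges. Col-0 coverage both set the ranges and was the divisor of the fractions. The log2 change of DMR over flank coverage, which needs no scaling, was -0.76, -0.65, 0.07 and 0.63 for CHH-only DMRs. For CHG DMRs outside CHH DMRs it was -0.70, -0.59, -0.27 and -0.08, so CHH-only DMRs were slightly lower from 2 to under 10 and higher from 10 upwards. At a Col-0 coverage of 1 to under 2 the fractions were 0.219 over 220 and 0.449 over 120, and the flank changes -1.12 and -1.10. At a Col-0 coverage above 0 and under 1 the fractions of both classes lay close together, at 0.545 over 183 and 0.517 over 107. The flank changes there were 0.16 for CHH-only DMRs and -0.83 for CHG DMRs outside CHH DMRs. CHH DMRs shared with CHG DMRs had fractions of 0.168 at 2 to under 5 and 0.186 at 5 to under 10, below the CHH-only DMRs.

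Shares of regions without a cmt3 fragment differed in the same direction as these fractions. At a Col-0 coverage of 2 to under 5, 56.8% of CHH-only DMRs and 36.1% of CHG DMRs outside CHH DMRs had none. Where Col-0 had 5 or more fragments per base, there was no cmt3 fragment at 100 of 417 CHH-only DMRs (24.0%, 95% exact binomial interval 19.96% to 28.4%). The same held for 77 of 1858 CHG DMRs outside CHH DMRs (4.14%, 3.28% to 5.15%). The 100 regions came from 44 loci, so they were not independent, and the most covered of them had 12.0 in Col-0.

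**Figure D3:**
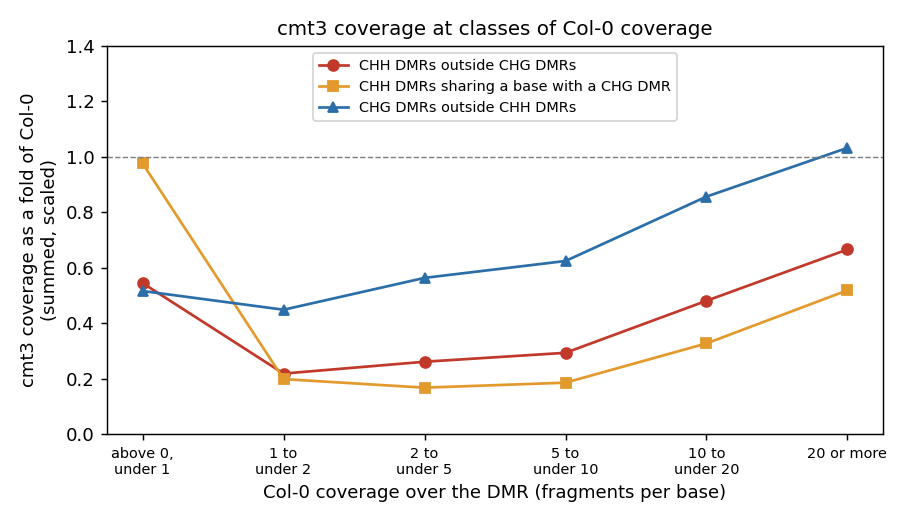
Scaled cmt3 coverage as a fraction of Col-0 coverage in classes of Col-0 coverage (fragments per base), for CHH-only DMRs, CHH DMRs shared with CHG DMRs and CHG DMRs outside CHH DMRs. From 2 fragments per base upwards CHH-only DMRs lie below CHG DMRs outside CHH DMRs in every class, for example 0.294 against 0.625 at 5 to under 10.

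CHH-only DMRs occurred in clusters. DMR windows lie on a grid of 50 bp, and neighbouring DMRs often overlap. Members less than 100 bp apart formed 720 runs, of which 329 held a single DMR, and the longest run had 16 DMRs over 1000 bp. Members less than 10 kb apart formed 312 loci, of which 106 held a single DMR and the largest held 75. The 37 loci of 10 or more members held 942 of the 1596 regions, or 59.0%, and had a median length of 4.95 kb (2.45 to 23.4 kb).

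The difference between genotypes was largest in the big loci. Regions in loci of 10 or more members had a mean coverage of 4.75 in Col-0 and 1.64 in cmt3 (log2 ratio -1.54), and 57.3% were lower by at least 2-fold. Regions in loci of 3 to 9 members had 3.30 and 1.39 (-1.24, 40.6% lower), and those in loci of 1 or 2 members had 1.84 and 1.52 (-0.27, 22.7% lower). Of the last group, 49.6% had no fragment in Col-0. With the factor from the CHH flanks these 3 ratios were -0.64, -0.35 and 0.62, so the smallest loci changed sign. The order of the ratios could not change, because that factor raises each of them by the same amount. With each locus counted once the summed log2 ratio was -0.76, and without the loci of 10 or more members it was -0.88 over 654 regions. The division into loci was made after values had been seen.

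Of the 37 large loci, 36 had a lower mean coverage in cmt3, 27 of them by at least 2-fold, and 1 had a higher one. With the factor from the CHH flanks 32 were lower, 14 of them by at least 2-fold, and 5 were higher. Their cmt3 coverage ranged from 0.038 to 1.11 of Col-0 with a median of 0.277. Among all 312 loci, 174 were lower, 46 higher and 92 equal, and the median locus had a log2 ratio of -0.29. The locus with the most members, on chromosome 2 from 7224151 to 7247500 (TAIR10), held 75 regions with means of 6.02 in Col-0 and 1.80 in cmt3. It spans 5 annotated genes, among them ADF5, an actin depolymerizing factor, which no CHH-only DMR overlaps. A locus on chromosome 2 from 17337551 to 17344900 with 55 regions had 4.71 in Col-0 and 0.561 in cmt3. A locus on chromosome 5 from 6205801 to 6212550 with 53 regions had 1.92 and 0.102, and 50 of its regions had no cmt3 fragment. The lowest fraction, 0.038, was that of 10 regions in the pseudogene AT5G35820 on chromosome 5, with 2.52 in Col-0 and 0.097 in cmt3. The locus with higher coverage in cmt3, on chromosome 4 from 11359701 to 11369050, had 16 regions with 9.73 in Col-0 and 10.8 in cmt3. A run of 2 regions in it had 27.7 and 44.1, and the other 14 had 7.17 and 6.03, with 5 of them lower by at least 2-fold and 0 higher by as much.

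**Figure D4:**
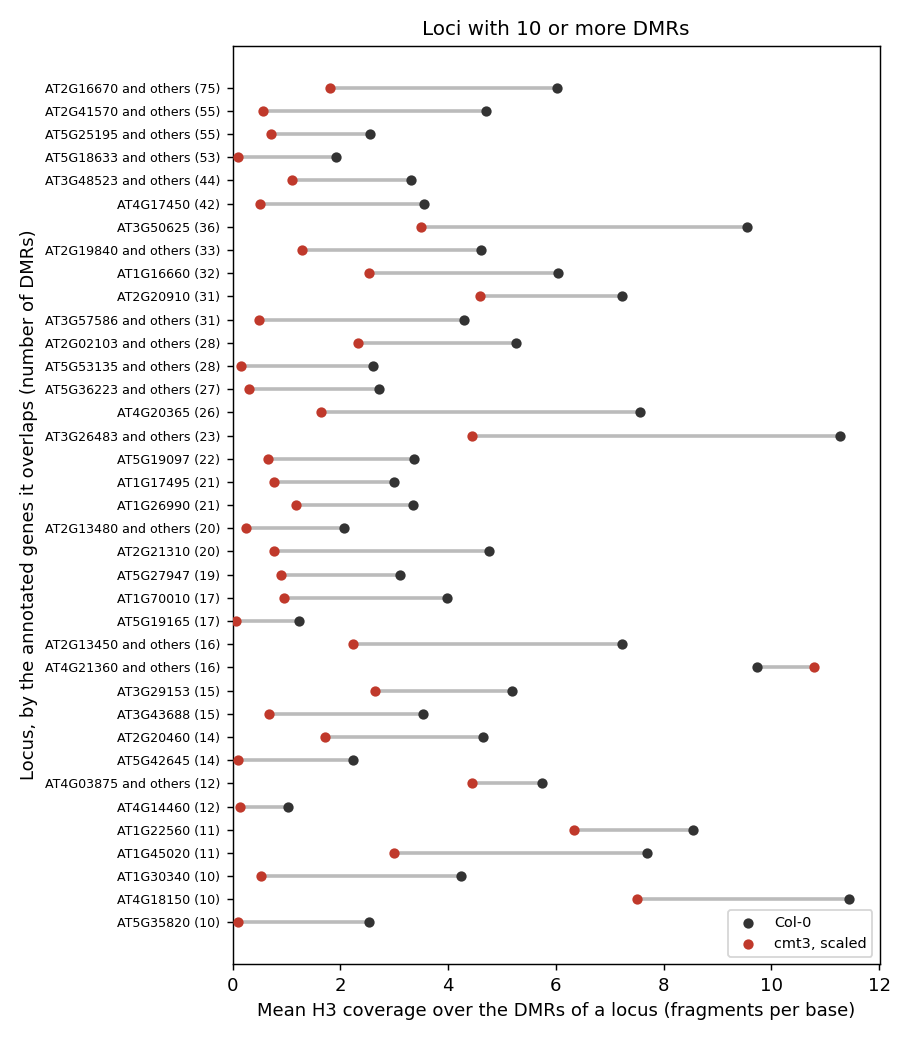
Mean H3 coverage (fragments per base) of the 37 loci with 10 or more CHH-only DMRs in Col-0 and in scaled cmt3. In 36 loci cmt3 lies below Col-0 (32 with the factor from the CHH flanks), and 1 locus of 16 regions on chromosome 4 lies above it (9.73 and 10.8).

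Nearness to CHG DMRs, which the selection rule touches, went together with coverage. The 658 regions with a CHG DMR less than 500 bp away had 5.37 in Col-0 and 1.89 in cmt3 (log2 ratio -1.51), and the 491 at 500 bp to 5 kb had 3.21 and 1.18 (-1.45). The 130 regions at 5 to 50 kb had 2.40 and 1.51 (-0.67), and the 317 at 50 kb or more had 2.51 and 1.49 (-0.76). Just inside the rule, 229 regions with a CHG DMR within 50 bp had 6.80 and 2.29 (-1.57). Just outside it, 181 CHH DMRs that share at most 50 bp with a CHG DMR had 8.57 and 3.18 (-1.43), so values ran on across the border of the rule.

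Positions were set against the genes of RefSeq's table for the assembly TAIR10.1, which was used for names and gene classes. Of the 1596 regions, 981 (61.5%) overlapped a pseudogene, 182 (11.4%) a protein-coding gene, 27 (1.69%) another RNA gene and 406 (25.4%) no annotated gene. The share in pseudogenes was larger in the other classes, at 75.4% of CHG DMRs outside CHH DMRs and 85.5% of CHH DMRs shared with CHG DMRs. In pseudogenes, the mean was 4.28 for Col-0 and 1.48 for cmt3 (log2 ratio -1.53), and 55.9% of regions were lower by at least 2-fold. In protein-coding genes it was 6.65 and 2.73 (-1.29), and 53.3% were lower. Outside annotated genes it was 1.89 and 1.30 (-0.54), 25.1% were lower, and 48.3% had no fragment in Col-0. CHG DMRs outside CHH DMRs had log2 ratios of -0.06 in pseudogenes, -0.01 in protein-coding genes and -0.08 outside genes.

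The classes of DMRs also lie in different surroundings. Within 250 kb of a CHH-only DMR, pseudogenes made up a median of 6.15% of the annotated genes (quartiles 3.41% and 14.8%). Around CHG DMRs outside CHH DMRs this was 54.2% (25.5% and 75.8%), and around CHH DMRs shared with CHG DMRs it was 6.70%. The part of these surroundings in the difference between the classes was not tested.

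The 1596 regions overlapped 206 genes, of which 73 held 5 or more of them, 58 of these being pseudogenes and 12 protein-coding genes. The pseudogene AT4G17450 held 41 regions with means of 3.63 in Col-0 and 0.510 in cmt3. The pseudogene AT5G18633 held 39 regions with a mean of 1.59 in Col-0, and all 39 were without a fragment in cmt3. In the pseudogene AT2G16680, 31 of 32 regions had no cmt3 fragment, at a Col-0 mean of 1.77. The protein-coding gene AT2G16676, in the largest locus, held 23 regions with 14.4 and 5.36, and 17 of them were lower by at least 2-fold. The protein-coding gene AT2G41590 held 14 regions with 8.54 and 1.99, of which 13 were lower by at least 2-fold. The protein-coding gene AT3G17400 held 6 regions with 18.7 and 11.5, of which 2 were. Among 10 genes known for methylation or for their part in it (SDC, FWA, SUP, PAI2, IBM1, ROS1, MEA, CMT3, CMT2 and DRM2), 0 had a CHH-only DMR within 2 kb.

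Single regions were named where coverage in Col-0 and cmt3 together reached at least 20, which 81 of the 1596 regions did. Of these 81, 63 were lower in cmt3, 25 of them by at least 2-fold, and 18 were higher, 5 of them by at least 2-fold, with a median log2 ratio of -0.40. Among all 4904 distinct cmt3 DMRs, with no such limit on coverage, 66.9% were lower and 37.3% were lower by at least 2-fold. In that set 22.5% were higher and 2.57% were higher by at least 2-fold. For each named region the fragments over its central base were counted in both unscaled profiles. At equal H3 levels cmt3 would supply 37.1% of them, or 24.1% with the factor from the CHH flanks. The regions were picked for extreme ratios from the same fragments, so the interval of a cmt3 share describes its counting error and is no test of a difference.

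The largest decrease lay on chromosome 4 from 9732801 to 9732900, in the pseudogene AT4G17450, where coverage was 21.5 in Col-0 and 1.69 in cmt3 (log2 ratio -3.06). Its central base had 23 Col-0 fragments and 1 cmt3 fragment, so cmt3 supplied 4.17% (95% exact binomial interval 0.105% to 21.1%). On chromosome 1 from 14024301 to 14024400, in the pseudogene AT1G36975, coverage was 19.45 in Col-0 and 2.08 in cmt3. In the transcribed pseudogene AT2G20910, on chromosome 2 from 8994451 to 8994550, it was 17.9 and 3.22, with a CHG DMR no nearer than 130200 bp. In the protein-coding gene AT2G16676, on chromosome 2 from 7231651 to 7231750, it was 36.9 and 9.11, and cmt3 supplied 7 of the fragments at the centre against 40 from Col-0. The upper bounds of the cmt3 share at these 4 regions were 21.1%, 26.0%, 29.2% and 28.3%, all below 37.1%, and the first alone was below 24.1%. Because the regions were picked for low ratios, low bounds are built into the choice and test nothing.

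The next 4 decreases lay in pseudogenes. Coverage in AT3G50625 was 24.9 in Col-0 and 7.11 in cmt3 on chromosome 3 from 18792151 to 18792250, and 16.4 and 5.01 from 18794401 to 18794500. In AT4G20365, on chromosome 4 from 10993951 to 10994050, it was 20.2 and 6.23. In AT3G26483, on chromosome 3 from 9692801 to 9692900, it was 33.2 and 11.8 (log2 ratio -1.42). The flanks of that last region had 5.51 in Col-0 and 0.100 in cmt3, so H3 was sparser around it than in it in both genotypes. The upper bound of the cmt3 share, again no test, was below 37.1% at 2 of these 4 regions. It was 30.2% for the first in AT3G50625 and 34.1% for AT3G26483, and it was below 24.1% at 0 of the 4. With the factor from the CHH flanks all 8 regions were still lower in cmt3, with log2 ratios from -2.44 to -0.58.

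The largest increase was found outside annotated genes on chromosome 3 from 23130851 to 23130950, where coverage was 3.82 in Col-0 and 33.9 in cmt3 (log2 ratio 2.86). At its centre lay 5 Col-0 and 22 cmt3 fragments, a cmt3 share of 81.5% (61.9% to 93.7%). The outer flanks of this region were nearly without H3, with 0 in Col-0 and 0.120 in cmt3. The nearest CHG DMR lay 27100 bp away. In the pseudogene AT4G10460, on chromosome 4 from 6468951 to 6469050, coverage was 6.72 in Col-0 and 23.5 in cmt3 (1.67), with a cmt3 share of 66.7% (43.0% to 85.4%). On chromosome 5 from 1816851 to 1816950, with 27.1 and 59.4 (1.10), the share was 57.4% (44.8% to 69.3%), and the flanks had 21.9 and 21.5.

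The other 3 increases were smaller or rested on few fragments. On chromosome 4 from 6288451 to 6288550 coverage was 6.04 in Col-0 and 14.5 in cmt3, with 2 fragments from each genotype over the central base. From 11368901 to 11369000 on the same chromosome it was 18.1 and 30.3, and from 631951 to 632050, in the pseudogene AT4G01490, it was 8.76 and 13.1. At these 3 regions the interval of the cmt3 share included 37.1%.

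Among the 3 regions with a ratio nearest to 0, 2 lay in protein-coding genes. In AT2G16676, on chromosome 2 from 7230951 to 7231050, coverage was 10.6 in Col-0 and 10.3 in cmt3, less than 1 kb from the region of the same gene with 36.9 and 9.11. In the pseudogene AT3G29153, on chromosome 3 from 11120451 to 11120550, it was 21.6 and 22.4. In AT3G17400, on chromosome 3 from 5954851 to 5954950, it was 15.03 and 14.0, close to MTO3, a gene for S-adenosylmethionine synthetase, which makes the methyl donor. With the factor from the CHH flanks the log2 ratios of these 3 regions were 0.75 to 0.92.

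The longest run, on chromosome 4 from 9736201 to 9737200, held 16 regions in AT4G17450. It averaged 5.48 for Col-0 and 1.14 for cmt3, and 7 of the regions had no cmt3 fragment. A run of 8 regions on chromosome 3 from 21326801 to 21327650, in the pseudogene AT3G57586, had 2.55 in Col-0 and no cmt3 fragment in any region. At the centre of its most covered region lay 7 Col-0 fragments and 0 from cmt3, with an upper bound of 41.0% for the cmt3 share, above 37.1%. That region was picked for its Col-0 coverage, so this bound is no test either.

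The 38 regions with at least 2-fold higher coverage in cmt3 were mostly regions with little H3 in the wild type. In Col-0, 24 of them had no fragment, and their median coverage was 0 in Col-0 and 1.69 in cmt3. They came from 27 loci, 9 of them lay in loci of 10 or more members, and 17 lay outside annotated genes.

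Where CHH-only DMRs of cmt3 overlapped DMRs of the other methyltransferase mutants, those were mostly CHH DMRs. In all, 486 of the 1596 (30.5%) shared a base with some drm2 or met1 DMR. For drm2, 326 (20.4%) shared a base with a CHH DMR, 30 (1.88%) with a CG DMR and 0 with a CHG DMR. For met1, 268 (16.8%) shared one with a CHH DMR, 65 (4.07%) with a CG DMR and 43 (2.69%) with a CHG DMR. Of the 2629 CHG DMRs outside CHH DMRs, 11 (0.418%) shared a base with a drm2 CHH DMR, 178 (6.77%) with a met1 CHH DMR and 572 (21.8%) with a met1 CG DMR. These overlaps were not set against the size of each list.

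Coverage in drm2 and met1-3 could be read where a region lay inside a window of their own DMR lists, and each mutant was scaled on the outer flanks of its own windows. All these comparisons use the same Col-0 profile, so their values are given side by side. At the 380 regions that could be read in all 4 genotypes, the means were 4.68 in Col-0, 2.27 in cmt3, 4.85 in drm2 and 5.39 in met1-3. The medians were 2.46, 0, 0.355 and 2.25, and 22.9%, 52.4%, 44.7% and 37.1% of the regions had no fragment. The scale factors against Col-0 were 0.591 for cmt3, 1.20 for drm2 and 0.411 for met1-3, so the share of empty regions compares profiles of unequal depth. By the mean, cmt3 alone of the 3 mutants was below Col-0, whereas by the median all 3 were.

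**Figure D5:**
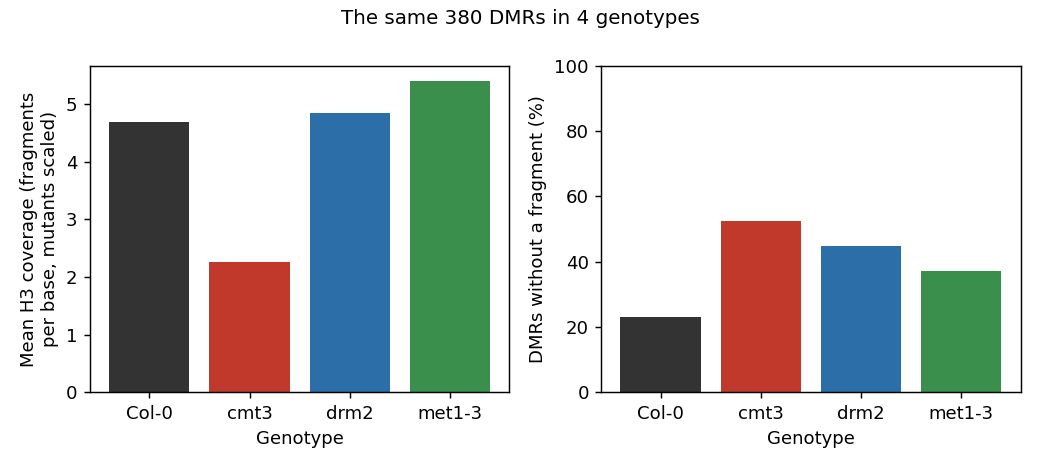
Mean H3 coverage (left bars, fragments per base, mutants scaled) and percent of regions without a fragment (right bars) in 4 genotypes, over the 380 CHH-only DMRs of cmt3 that lie in windows of all the lists. Means are 4.68, 2.27, 4.85 and 5.39 in Col-0, cmt3, drm2 and met1-3, and 22.9%, 52.4%, 44.7% and 37.1% of the regions have no fragment, at unequal depths (scale factors 0.591, 1.20 and 0.411 for the 3 mutants).

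Over the 530 regions inside drm2 windows, the means were 4.09 in Col-0, 4.04 in drm2 and 1.84 in cmt3. Coverage was lower in drm2 by at least 2-fold at 153 of them (28.9%, against 10.1% of all drm2 DMRs) and higher at 37 (6.98%, against 13.7%). The 326 regions that share a base with a drm2 CHH DMR had 2.75 in Col-0, 1.93 in drm2 and 1.58 in cmt3, and 63.5% had no drm2 fragment. The 183 regions without any drm2 DMR had 5.11, 5.89 and 1.67. Under this scaling the drm2 mean was below Col-0 where drm2 also has a CHH DMR and above it where it has none. The cmt3 mean was below Col-0 in both groups. Counts did not follow the drm2 mean in the 183 regions. There, 52 (28.4%) were lower in drm2 by at least 2-fold and 21 (11.5%) higher, with a median log2 ratio of 0. In the same regions 14.2% had no fragment in Col-0 and 30.6% had none in drm2.

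Over the 653 regions inside met1 windows, the means were 4.73 in Col-0, 5.42 in met1-3 and 2.14 in cmt3. Coverage was lower in met1-3 by at least 2-fold at 104 (15.9%, against 19.3% of all met1 DMRs) and higher at 90 (13.8%, against 6.26%). The 268 regions that share a base with a met1 CHH DMR had 3.49 in Col-0, 3.17 in met1-3 and 1.54 in cmt3. The 341 regions without any met1 DMR had 4.61, 6.00 and 1.72. Regions inside these windows were not a random sample of the 1596, because a window marks a nearby DMR of that mutant.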

How the data were processed

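H3 fragments were sequenced from both ends in reads of 50 bp, per the labels' protocols. Bowtie2, Picard, Bismark and methylKit and the genome build TAIR10 are named in the submitters' processing notes without versions or roles; how DMRs and fragments were called is not given in the sources used here. The authors deposited H3 coverage as an unscaled signal in whole numbers at consecutive bases, in 1 profile per genotype that the labels link to both replicates. Each row is named for a window of 1100 bp and holds 1099 values; the first was taken as the window's start, so positions may be off by 1 bp. The DMR is taken as the 100 bp from the start plus 500. The authors also deposited methylation levels as a fraction per cytosine, without coverage or context.

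Computed here were mean coverage per DMR, a scale factor from distinct bases of the outermost 219 positions on each side of all cmt3 windows, and log2 ratios with a pseudocount of 1. The threshold for a called difference was 2-fold, and no filter on low values was applied. Genes were matched to RefSeq's TAIR10.1 table by position. That the coordinates of both match was checked on coverage, which averaged 4.92 from 51 to 150 bp before 576 gene starts and 10.5 at the same distance inside. Exact binomial intervals are Clopper-Pearson at 95% and cover counting error alone. Those for shares of regions take overlapping regions as independent and are too narrow. Named regions were the 8 largest decreases, 6 largest increases, 3 ratios nearest to 0 and 2 longest runs, with members within 500 bp of one already named skipped. The members and lists were chosen with earlier results of these data known. Cytosine contexts inside the DMRs and transposon annotation were planned and not analysed here. Alternatives were other scalings, pseudocounts, filters and subsets. Python 3.11.15, numpy 2.4.6, pandas 2.3.3 and scipy 1.17.1 were used, and the scripts were tested on simulated data.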

Additional observations from a re-analysis of the deposited data

How the results depend on the processing

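Of 49 alternatives to the 5 main values, 26 moved the value by less than its spread over chromosomes or its counting interval, 22 moved it by more and 1 reversed it. The 26 include changes of a common scale factor for the difference from CHG DMRs outside CHH DMRs. Such a factor cancels in that difference, so these outcomes were fixed in advance. For the summed log2 ratio (-1.32) and the median (-0.90), scaling on the flanks of the CHH windows gave -0.43 and -0.54, TMM over all cmt3 DMRs gave -0.97 and -0.77, and no scaling gave -2.08 and -1.15. The median was -1.20 with a pseudocount of 0.5, -0.33 with 5, -1.46 where Col-0 had 1 or more fragments per base, -0.71 with 1 member per run, -0.58 at 500 bp or more from every CHG DMR, and -0.29 over loci. The summed ratio was -0.75 over regions whose coverages in both genotypes add up to 10 or more. In that subset the DMR over flank change (-0.29) reversed to 0.34 and the share without a cmt3 fragment (60.3%) was 4.98%. The share was 46.8% where Col-0 had 1 or more, 68.4% at 500 bp or more from every CHG DMR and 65.9% over the central 50 bp. The difference from CHG DMRs outside CHH DMRs (-1.26) was -0.32 with each set scaled on its own flanks. Chosen after seeing the data, weighting each locus once gave a summed ratio of -0.76. Leaving out the loci of 10 or more members gave -0.88, a median of -0.17 and a DMR over flank change of -0.54. Beyond the construction of each subset, the cause of these shifts was not tested. Depth limits single regions: at a cmt3 coverage near 1, presence and absence of 1 fragment decide the value. No paired analysis was possible because the tables hold 1 combined profile per genotype and no column for a replicate. For the same reason no replicate could be left out.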

Other observations

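DNA methylation of cmt3 was not analysed here, but bisulfite levels of Col-0, nrpe1 (the largest subunit of RNA polymerase V) and swi3b (a subunit of SWI/SNF chromatin remodellers) were deposited around nucleosomes of other lists. The deposited windows covered 13 of the 1596 CHH-only DMRs, and 4 of these held cytosines with a level in all 3 genotypes, 16 distinct cytosines in total. Over those cytosines the mean level was 18.4% in Col-0, 0.737% in nrpe1 and 18.4% in swi3b. On chromosome 4 from 11946501 to 11946600, 6 cytosines averaged 27.0%, 1.32% and 21.0%, and the H3 coverage there was 8.10 in Col-0 and 3.39 in cmt3. The neighbouring DMR from 11946551 to 11946650, which overlaps it, had 20.6%, 1.47% and 19.6% over 8 cytosines. On chromosome 4 from 9737651 to 9737750, in the locus of AT4G17450, 3 cytosines averaged 22.4%, 0% and 26.3%, and neither genotype had an H3 fragment. On chromosome 2 from 7146101 to 7146200, 2 cytosines had a level of 0% in each of the 3 genotypes. The context and the read depth of these cytosines are unknown, each value combines the replicates of a genotype, and 4 regions do not describe the 1596.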
